A study of Mus musculus with 8 samples.

Results

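The large histone gene cluster on mouse chromosome 13 was described through the chromatin loops that reached it. Members were the loops on chromosome 13 with at least 1 anchor wholly between 21.7 and 23.8 Mb (mm10), which the 4 loop lists of the series held 179 times as distinct loops, of 249200 distinct loops in all. For FOXA1 they were 93 of the 125623 loops of the liver metastasis line (liver mets) and 63 of the 104136 of the primary tumor line. For HNF4G they were 52 of 78098 and 43 of 76323 loops. These loops used 32 anchors, the short intervals at the 2 ends of a loop, of 30542 anchors in all lists. No anchor overlapped the limits of the window, and its anchors lay from chr13:21719749 to chr13:23765087.

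Hi-ChIP, which joins chromosome conformation capture with immunoprecipitation and so reports contacts between fragments bound by a chosen protein, was performed for the transcription factors FOXA1 and HNF4G in 2 lines of mouse pancreatic cancer cells. The KPC model from which the lines came is a genetically engineered mouse model of pancreatic cancer. Per the labels the lines were derived from a primary tumor and from a liver metastasis, their genotype was WT and all were untreated. The study calls them isogenic. Each factor and line had 2 replicates, 8 samples in all, but 1 loop list covered both replicates of a group. No spread between replicates could be calculated, so no difference between lists was tested, and the intervals below, at the 95% level, cover counting error only. Loops that share an anchor are not independent, which these intervals leave out. Each line stands for 1 tumor or 1 metastasis as a cell line, so a difference between the lines cannot be told apart from a difference between 2 cultures. The sequencing depth behind the lists is unknown. Where 4 values follow each other below, the first and second are those of FOXA1 and the last 2 those of HNF4G, each time with liver mets before tumor.

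Canonical histone genes encode the proteins that package DNA, H2A, H2B, H3 and H4, and the linker histone H1. They are short, lack introns, lie in clusters and are transcribed mainly while a cell copies its DNA. The largest cluster in the mouse lies on chromosome 13 and its parts flank an array of vomeronasal receptor genes, which encode pheromone receptors of sensory neurons and are silent in most tissues. Active histone genes gather in nuclear bodies. FOXA1 is a forkhead factor and HNF4G a nuclear receptor, and both bind enhancers of endodermal tissues.

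The promoters of histone genes at the ends of the loops between histone subclusters carry the recurring signals of this family, and 1 promoter is shown for each of the 5 anchors, the gene nearest to the anchor's midpoint. Capitals mark CCAAT or its reverse complement ATTGG, the octamer ATTTGCAT and TATAAA, each searched on both strands. No 2 capital runs overlap. Each sequence holds the 250 bases before the gene's start, 5′ to 3′ on the gene's strand, from RefSeq on GRCm38.p6, the assembly that mm10 names.
Hist1h2bm: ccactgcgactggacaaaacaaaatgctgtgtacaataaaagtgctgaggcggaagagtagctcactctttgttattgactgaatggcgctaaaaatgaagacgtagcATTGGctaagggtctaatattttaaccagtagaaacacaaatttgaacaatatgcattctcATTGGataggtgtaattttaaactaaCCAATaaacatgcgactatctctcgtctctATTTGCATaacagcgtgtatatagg
Hist1h2ak: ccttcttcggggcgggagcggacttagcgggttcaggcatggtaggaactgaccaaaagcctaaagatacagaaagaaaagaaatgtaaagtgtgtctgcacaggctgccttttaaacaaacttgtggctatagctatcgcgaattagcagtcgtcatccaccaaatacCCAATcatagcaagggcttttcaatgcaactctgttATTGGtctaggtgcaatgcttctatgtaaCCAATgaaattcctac
Hist1h3i: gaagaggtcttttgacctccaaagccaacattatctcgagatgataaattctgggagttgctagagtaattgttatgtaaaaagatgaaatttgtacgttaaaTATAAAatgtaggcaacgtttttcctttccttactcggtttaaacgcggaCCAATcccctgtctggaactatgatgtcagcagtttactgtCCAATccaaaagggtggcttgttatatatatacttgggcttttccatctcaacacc
Hist1h4i: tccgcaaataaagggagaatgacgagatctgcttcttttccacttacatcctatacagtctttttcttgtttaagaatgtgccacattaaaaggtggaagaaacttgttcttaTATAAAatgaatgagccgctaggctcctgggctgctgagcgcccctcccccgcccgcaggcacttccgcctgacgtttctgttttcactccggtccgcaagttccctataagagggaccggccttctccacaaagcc
Hist1h3e: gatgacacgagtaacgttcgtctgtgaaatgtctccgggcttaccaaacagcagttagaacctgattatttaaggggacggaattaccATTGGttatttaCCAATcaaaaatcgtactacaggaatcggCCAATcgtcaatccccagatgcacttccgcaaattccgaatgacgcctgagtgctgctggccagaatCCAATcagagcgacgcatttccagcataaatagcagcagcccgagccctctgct
They lie at chr13:21721794-21722043 (plus strand, Hist1h2bm), chr13:21753913-21754162 (minus strand, Hist1h2ak), chr13:21783398-21783647 (minus strand, Hist1h3i), chr13:22041363-22041612 (minus strand, Hist1h4i) and chr13:23562386-23562635 (minus strand, Hist1h3e). All but that of Hist1h4i lay wholly inside the anchor. The H4 promoter had no CCAAT, the H3e promoter had 4 of these words, and the octamer stood in the H2B promoter alone.

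Across the family the words differed by histone type. A RefSeq promoter was found for 48 of the 52 histone genes in the window. CCAAT was in 40 of them (83.3%), against 33.8% of 32851 mouse promoters, and in every promoter of the H1, H2A, H2B and H3 genes but in only 3 of 11 H4 promoters. The octamer was in 4 of 12 H2A and 4 of 13 H2B promoters and in none of the others, against 1.60% of all promoters. TATAAA was in 23 (47.9%), against 12.4%. The forkhead word TGTTTAC and the HNF4 word CAAAGTCCA were in 0 of 48, against 3.17% and 0.384% of all promoters. These are matches of letters in a window, not binding sites. Some neighboring H2A and H2B genes on opposite strands have overlapping windows, so a word in the overlap counts for both. Hist1h2ae with Hist1h2bg and Hist1h2ah with Hist1h2bk overlap in this way, and all 4 windows hold the octamer. The counts by type are therefore not counts of independent promoters. In whole anchors, pooled over their length, TGTTTAC stood 0.258 times per kb in the histone anchors of the window and 0.179 times per kb in all anchors. CAAAGTCCA stood 0.0286 and 0.0168 times per kb, and the median histone anchor had none. In the window's other anchors TGTTTAC stood 0.164 and CAAAGTCCA 0.0468 times per kb, so CAAAGTCCA was not densest in the histone anchors.

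In the GENCODE M21 annotation the 52 histone genes fell into 3 subclusters when gaps over 100 kb were taken as breaks. Subcluster 1, chr13:21715763-21837530, held 18 genes from Hist1h2bl to Hist1h2br. Subcluster 2, chr13:22035164-22043676, held 5 genes from Hist1h2ah to Hist1h2bj. Subcluster 3, chr13:23531050-23764406, held 29 genes from Hist1h4h to Hist1h1a. Subclusters 1 and 2 were 198 kb apart and subclusters 2 and 3 were 1487 kb apart. Most of the second gap was taken by 36 protein-coding Vmn1r genes between chr13:22057346 and chr13:23269474, a stretch of 1212 kb called the vomeronasal block here.

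The share of these genes with an anchor was near that of all genes. Of the 52 histone genes, 23 had an anchor within 2 kb of a start, where 49.7% of all 21755 protein-coding genes did. They were 4 of 6 H1, 5 of 12 H2A, 5 of 14 H2B, 3 of 9 H3 and 6 of 11 H4 genes. These counts are small, and several genes shared an anchor, so they are not independent. Subcluster 1 had 3 anchors at histone starts, subcluster 2 had 1 and subcluster 3 had 8. These 12 are called histone anchors and the window's other 20 anchors non-histone anchors. Histone paralogs resemble each other, and in the median 50.0% of the 31-base words of the histone genes with an anchor recurred elsewhere on chromosome 13, against 63.0% for those without. The part of read mapping in this was not tested. In the anchors themselves the median was 9.75% for histone and 3.04% for non-histone anchors. The vomeronasal block held a single anchor, at Vmn1r219, which had 3 loops in FOXA1 liver mets and none in the other lists. Of the other anchors 13 lay to the left of the block, at lower coordinates, and 18 to its right.

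**Figure D1:**
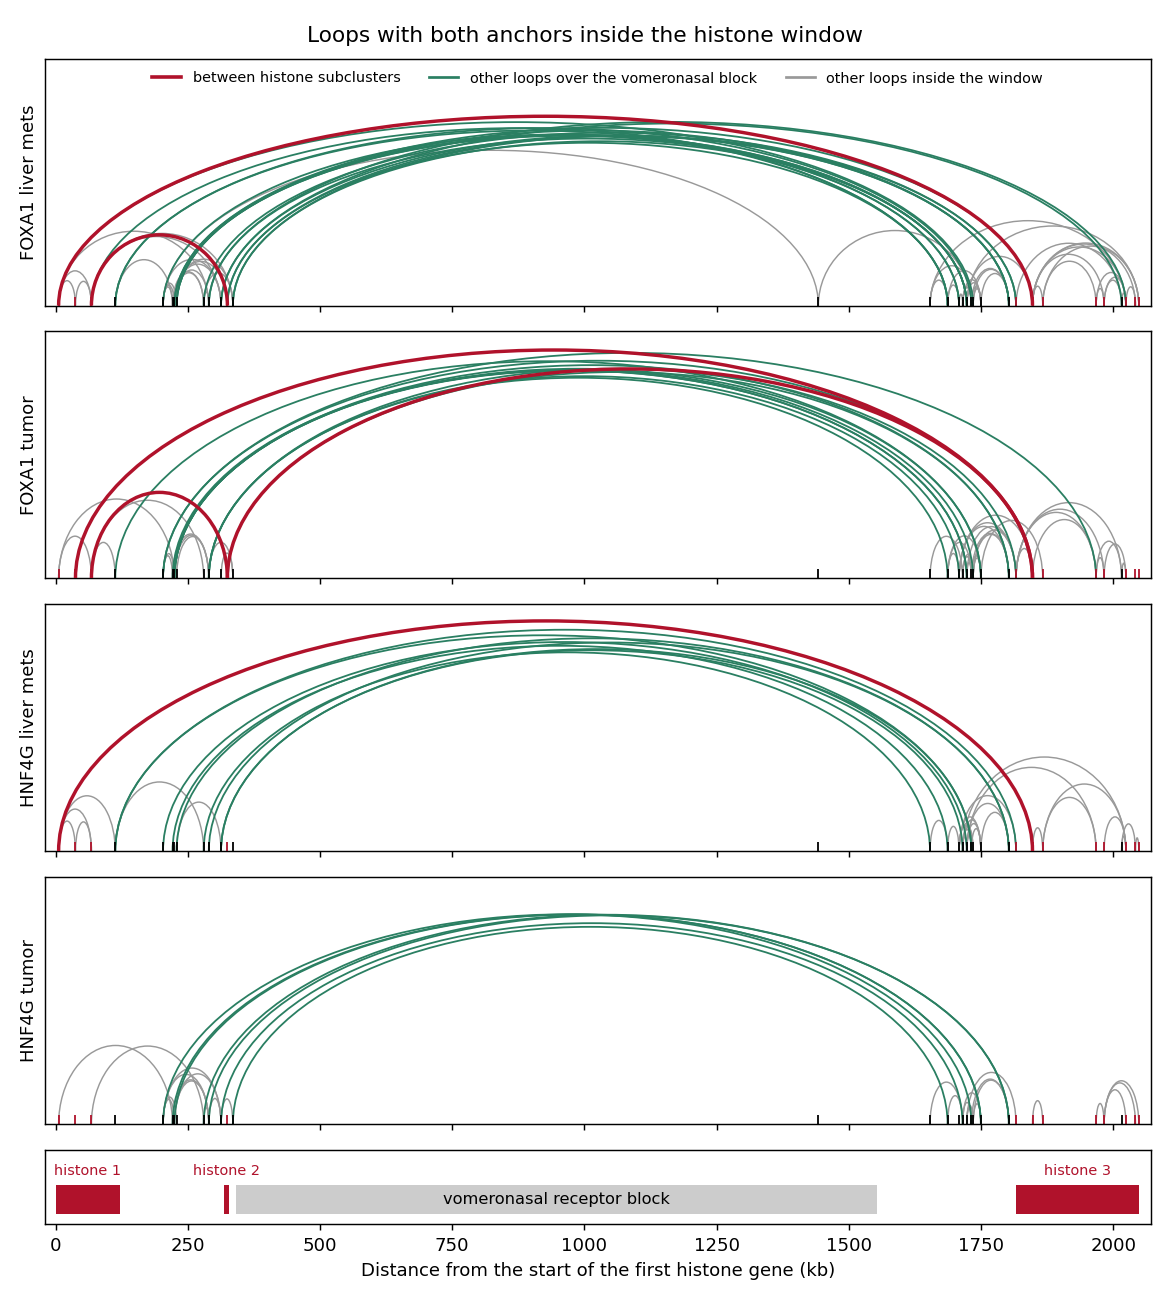
Loops with both anchors inside the window, 1 panel per list. The horizontal axis is the distance in kb from the start of the first histone gene, arc height rises with span and has no unit, ticks mark anchors (red for histone anchors), and the lowest panel marks the histone subclusters and the vomeronasal block. Loops over the block appear in all 4 lists, and those between histone subclusters (red arcs) number 2, 3, 1 and 0.

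Loops between histone subclusters were few. The lists held 2, 3, 1 and 0, out of 30 pairs of histone anchors in different subclusters that were close enough to be listed. No list held a loop over 2000 kb, which left out 5 further pairs. Over all anchor pairs of the genome up to that span, 10.2%, 8.44%, 6.33% and 6.19% were listed. Since listing falls steeply with span, the expected number was calculated from all pairs outside the window, in bins of equal span. It was 0.955, 0.714, 0.482 and 0.512 loops. Listed over expected was 2.09 (interval 0.254 to 7.56), 4.20 (0.866 to 12.3), 2.08 (0.0526 to 11.6) and 0 (0 to 7.21). Each interval includes 1, so neither an excess nor a lack of contacts between the subclusters was detectable from these counts.

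Of the 4 distinct loops between subclusters, 3 ended at the anchor chr13:23561299-23564097, which covers the start of Hist1h3e, an H3 gene in subcluster 3. Its partner at Hist1h2bm in subcluster 1, 1841 kb away, was listed in both liver mets lists and in neither tumor list. Its partner at Hist1h2ak and Hist1h2bn in subcluster 1 (1809 kb) and its partner at Hist1h2ag, Hist1h2bj and Hist1h4i in subcluster 2 (1522 kb) were listed in FOXA1 tumor alone. The fourth loop joined the anchor at Hist1h1b, Hist1h2an, Hist1h2bp and Hist1h3i in subcluster 1 with that of subcluster 2 over 257 kb and was listed for FOXA1 in both lines and for HNF4G in neither. None was in all 4 lists. The unnamed value of a loop, read here as −log10 of an adjusted p, was 1.87 to 1.99 for the 3 long ones. These are the values that nearly all long loops of each list share, so they do not rank them.

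The Hist1h3e anchor was also the end of the highest values in the window. In FOXA1 liver mets it looped to Hist1h4b, 195 kb away, with a value of 2.61 and to Hist1h1c, 177 kb away, with 2.39. These were the only window loops with a value of 2 or more, where 9.33%, 7.84%, 7.21% and 7.32% of the whole lists reached it. In the same list the anchor looped to Hist1h1t and Hist1h4c (135 kb, 1.04) and to Hist1h1a, Hist1h3a and Hist1h4a (201 kb, 1.44). In FOXA1 tumor it looped to Hist1h2ac and Hist1h2bc (120 kb, a value just under 2). None of these 5 loops was in an HNF4G list, and each was in 1 list alone. The HNF4G lists held a loop of 19.3 kb from Hist1h3e to Hist1h4d, which FOXA1 liver mets held too. All loops of this anchor numbered 8, 6, 3 and 1. The account of its loops was chosen after their values were seen.

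Within a subcluster 14, 7, 8 and 5 of 31 histone anchor pairs were listed. Listed over expected was 1.19, 0.668, 0.932 and 0.633, and each interval includes 1. In subcluster 1 all 3 pairs were listed in both liver mets lists, 1 in FOXA1 tumor and 0 in HNF4G tumor. Listed over expected on these 3 pairs was 2.11 (0.436 to 6.17), 0.778 (0.0197 to 4.34), 2.79 (0.576 to 8.16) and 0 (0 to 3.75), and each interval included 1. In subcluster 3, 11, 6, 5 and 5 of 28 pairs were listed. One loop of subcluster 3 was in all 4 lists. It joined Hist1h1t and Hist1h4c with Hist1h1c over 41.3 kb, with values of 0.542, 0.725, 0.146 and 0.171. Read as −log10 of an adjusted p, values this low stand for a large adjusted p. A listed loop is thus not always a significant one. The lowest value in the window was 0.0563, and the median values of its loops were 1.48, 1.37, 1.37 and 0.821. Hist1h1t encodes the testis linker histone and Hist1h1c a somatic linker histone.

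Loops over the vomeronasal block stood out from the rest of the window, a category chosen after the data were seen. They join an anchor to the left of the block with one to its right. FOXA1 had 20 in liver mets and 14 in tumor, and HNF4G had 10 and 7, of 228 pairs within reach. The numbers expected from span were 4.50, 3.11, 2.13 and 2.32. Listed over expected was 4.45 (2.72 to 6.87), 4.50 (2.46 to 7.56), 4.70 (2.25 to 8.65) and 3.02 (1.21 to 6.22), and in no list did the interval reach 1.

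The block has almost no anchors, which sets these pairs apart from most pairs of their span. The expectation was therefore also taken from the 17716 pairs outside the window that are separated by an anchor-free stretch of at least 1 Mb, of which the anchors of the genome leave 384. Listed over expected was then 2.67 (1.63 to 4.13), 2.31 (1.26 to 3.88), 2.38 (1.14 to 4.39) and 1.96 (0.786 to 4.03). Each ratio was lower than against all pairs of the same span, and the HNF4G tumor interval included 1. With the number of promoter anchors matched beside span the ratios were 4.20, 4.14, 4.12 and 2.55, and against chromosome 13 alone 4.26, 4.15, 5.37 and 4.64.

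Contacts over the block were not particular to histone genes. Of the 43 distinct loops 28 joined 2 non-histone anchors, 12 a histone with a non-histone anchor and 3 a histone anchor with another. Between non-histone anchors 11, 8, 8 and 7 of 90 pairs were listed, 5.79 (2.89 to 10.4), 6.07 (2.62 to 12), 8.84 (3.82 to 17.4) and 7.17 (2.88 to 14.8) times the number expected from span. Between histone and non-histone anchors 8, 4, 1 and 0 of 111 pairs were listed, 3.81 (1.64 to 7.50), 2.76 (0.752 to 7.07), 1.01 (0.0255 to 5.61) and 0 (0 to 3.38) times that number. All 7 crossing loops of HNF4G tumor and 8 of the 10 of HNF4G liver mets thus had no histone anchor. Against pairs with an anchor-free stretch of at least 1 Mb the ratios were lower or 0. Between non-histone anchors they were 3.37 (1.68 to 6.02), 3.08 (1.33 to 6.06), 4.44 (1.92 to 8.75) and 4.41 (1.77 to 9.09). Between histone and non-histone anchors they were 2.36 (1.02 to 4.64), 1.41 (0.384 to 3.61), 0.507 (0.0128 to 2.82) and 0 (0 to 2.31).

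The crossing loops spread over many anchors. All 13 anchors to the left of the block and 14 of the 18 to its right had at least 1. Summed over the lists the most, 9, ended at chr13:23516819-23519094, at the tRNA gene n-TStga1, with 3, 2, 2 and 2. Prss16, which encodes a thymic serine protease, had 2, 3, 1 and 1, the anchor chr13:21939270-21941727, with no gene start within 2 kb, had 2, 4, 0 and 1, and chr13:23437533-23439169, also without a start, had 4, 2, 1 and 0. The 4 anchors to the right without a crossing loop were those at Hist1h4d, at Hist1h1t, at Hist1h4b and at Hist1h1a, all histone anchors of subcluster 3. Of the 43, 35 were in 1 list (81.4%), 8 in 2 lists and 0 in 3 or 4, where 94.5% of the loops of 1000 to 2000 kb outside the window were in 1 list. All 51 entries had exactly the tied value of the long loops of their list, so their values carry no ranking. Their spans were 1351 to 1841 kb.

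With the loops over the block included, the window had fewer loops than its spans would give. They were 0.815 (0.658 to 0.998), 0.664, 0.724 and 0.615 (0.445 to 0.828) times the number expected, and no interval included 1. Against pairs of chromosome 13 alone the HNF4G ratios were 0.915 (0.684 to 1.20) and 0.820 (0.594 to 1.10), and both intervals included 1. Left of the block the lists had 21, 13, 6 and 12 loops, 0.840, 0.591, 0.341 and 0.731 times the expectation. Right of it they had 34, 28, 25 and 15, or 0.709, 0.662, 0.735 and 0.473 times. Loops from the window to anchors outside numbered 16, 8, 11 and 9, or 0.469, 0.314, 0.653 and 0.496 times. The interval included 1 in 3 lists to the left (not HNF4G liver mets) and in HNF4G liver mets alone to the right and to outside. Of the histone anchors' 17 distinct loops to outside, 2 led to Trim27, 2 to Gmnn, which encodes the replication licensing inhibitor geminin, and 2 to Slc17a4, a phosphate transporter family gene.

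**Figure D2:**
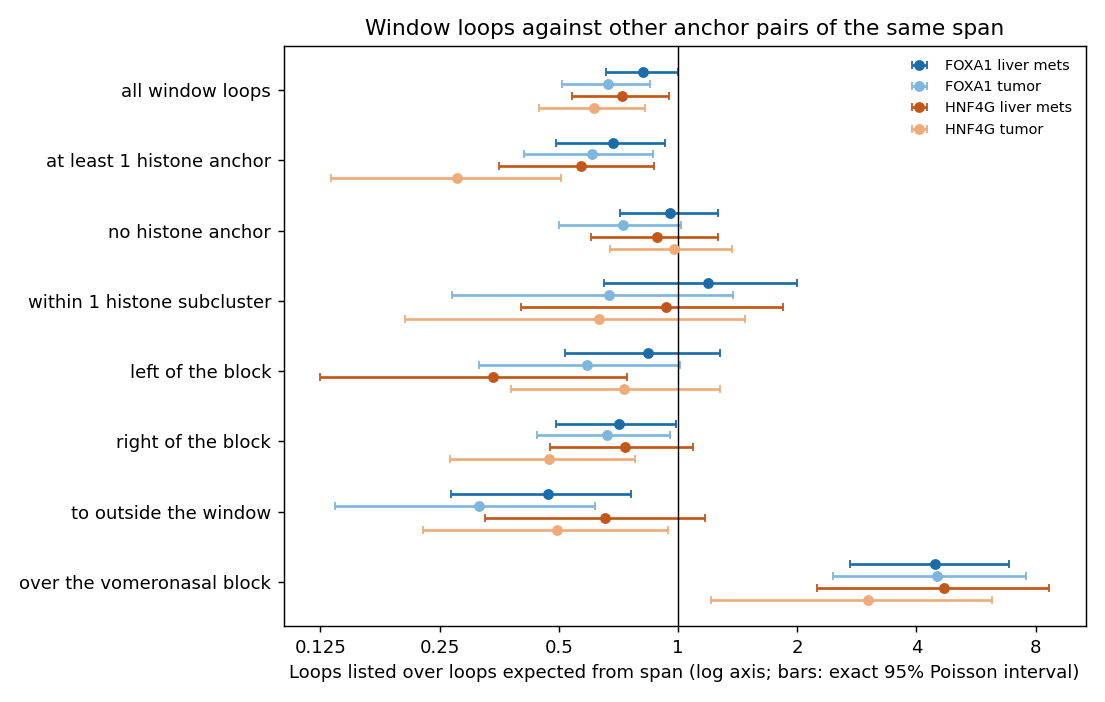
Loops listed over loops expected from span, on a log axis, for classes of window loops in the 4 lists. Bars are exact 95% Poisson intervals, which cover counting error only, and the line marks 1. The loops over the vomeronasal block lie between 3.02 and 4.70, and the loops with a histone anchor between 0.276 and 0.686.

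By span, the number of missing loops was largest between 100 and 500 kb. There 9.36% (22 of 235 pairs), 5.11% (12), 5.53% (13) and 2.55% (6) of window pairs were listed, against 16.5%, 13.5%, 9.44% and 9.53% of all other pairs. Their 95% Wilson intervals reached up to 13.8%, 8.71%, 9.23% and 5.46%. From 1000 to 2000 kb the window shares were 3.61%, 2.41%, 1.74% and 1.20%, against 2.29%, 1.60%, 1.06% and 1.16%. The window's intervals were 2.49% to 5.20%, 1.53% to 3.77%, 1.02% to 2.95% and 0.634% to 2.27%. Only that of FOXA1 liver mets left out the value of the other pairs. Of the 1283 window pairs 748 had such a span. Of the window's loops 29.0%, 28.6%, 25.0% and 20.9% spanned 1 Mb or more, where 9.58%, 8.06%, 7.15% and 8.0% of the whole lists did. Such shares also depend on how many long pairs there are and on how many shorter loops were listed. The median span was 182, 108, 107 and 86.5 kb, and 164, 141, 114 and 131 kb in the whole lists.

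**Figure D3:**
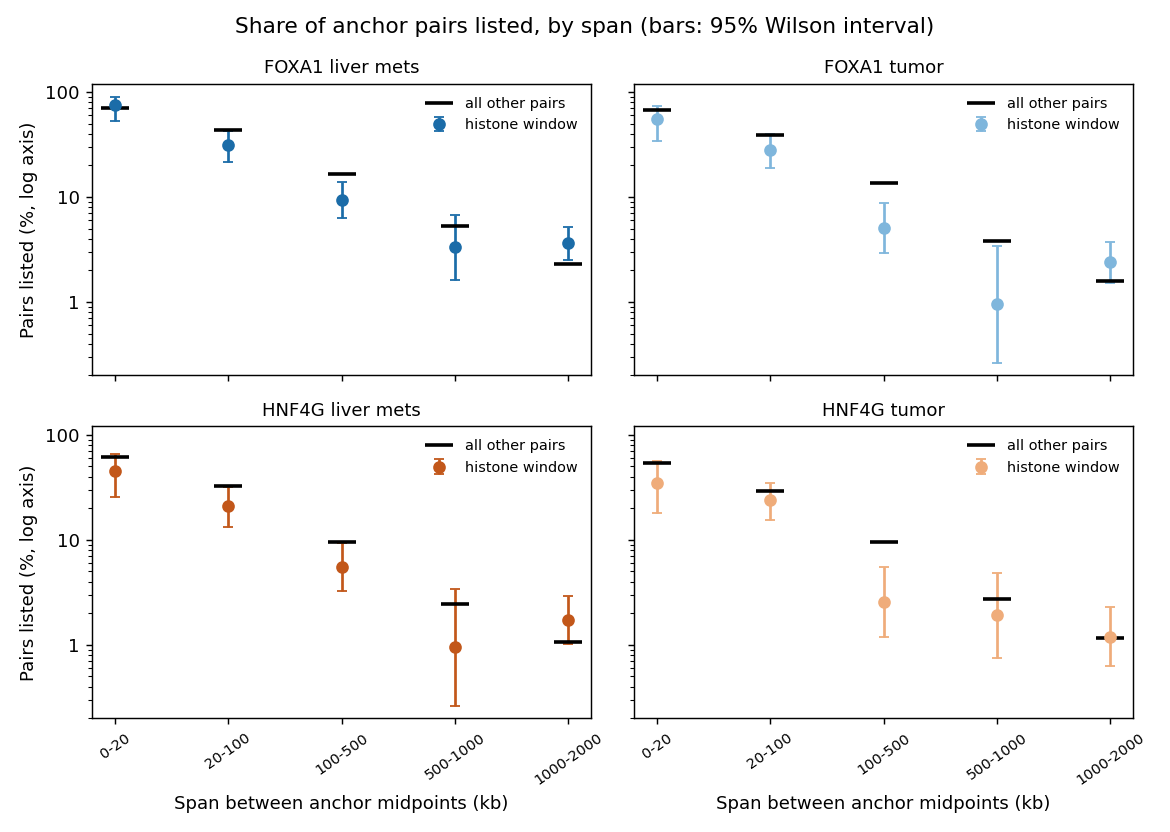
Share of anchor pairs listed as loops (vertical log axis, percent) in 5 ranges of span (horizontal axis, kb), for window pairs (points, with 95% Wilson intervals) and all other pairs of the genome (bars), 1 panel per list. In each panel the window's point lies under the bar from 20 to 1000 kb and over it from 1000 to 2000 kb. From 1000 to 2000 kb only the FOXA1 liver mets interval leaves out the bar.

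Histone anchors had fewer loops than their spans would give in every list. Loops with at least 1 histone anchor numbered 41 in liver mets and 30 in tumor for FOXA1, and 21 and 10 for HNF4G. They were 0.686 (0.492 to 0.930), 0.606 (0.409 to 0.865), 0.570 (0.353 to 0.871) and 0.276 (0.133 to 0.508) times the number expected. For the anchors of subcluster 1 the ratios were 1.08, 0.818, 0.712 and 0.426. For subcluster 2 they were 0.776, 0.683, 0 and 0, and in both subclusters each interval included 1. Subcluster 3 had 0.598 (0.390 to 0.876), 0.610 (0.382 to 0.924), 0.633 (0.369 to 1.01) and 0.266 (0.107 to 0.547). Window loops without a histone anchor numbered 52, 33, 31 and 33, or 0.957, 0.728, 0.886 and 0.977 times, with each interval including 1. These splits were chosen after the data were seen. On average 4.75, 3.33, 2.50 and 1.25 loops ended at a histone anchor and 5.65, 3.90, 3.15 and 3.1 at a non-histone anchor of the window. All promoter anchors of the genome, those within 2 kb of a gene start, had 8.89, 7.56, 5.81 and 5.97. The histone anchors had a median GC content of 45.1% and 1.43 DpnII sites (GATC) per kb, and all anchors 48.1% and 1.47. The non-histone anchors of the window had 43.2% and 2.03, so the histone anchors had fewer DpnII sites per kb than these. Whether this bears on the number of loops was not tested.

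**Figure D4:**
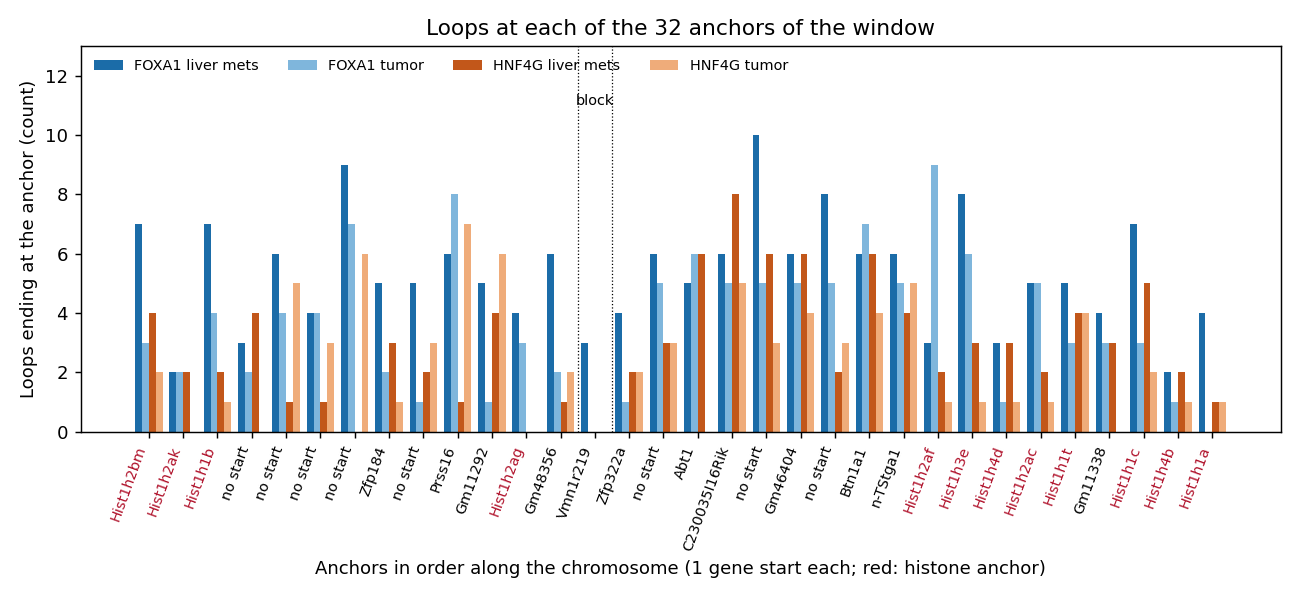
Number of loops ending at each of the 32 anchors of the window, in their order along the chromosome, with 4 bars per anchor for the 4 lists. Each anchor is named by 1 gene whose start lies within 2 kb, histone anchors are in red, and dotted lines enclose the single anchor of the vomeronasal block. In HNF4G tumor, 9 of the 12 histone anchors had at most 1 loop.

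Anchor by anchor, 24 of the 32 were used in all 4 lists, and the busiest were not at histone genes. Summed over lists, 24 loops ended at the start of C230035I16Rik (6, 5, 8 and 5) and 24 at chr13:23437533-23439169, which has no gene start within 2 kb (10, 5, 6 and 3). Btn1a1, a butyrophilin of the milk fat globule, had 6, 7, 6 and 4 loops. Prss16 had 6, 8, 1 and 7 and the anchor without a start at chr13:21939270-21941727 had 9, 7, 0 and 6, so at these 2 anchors HNF4G liver mets stood below the other lists. Gm46404 had 6, 5, 6 and 4, and n-TStga1 had 6, 5, 4 and 5. The anchors without a start at chr13:23449687-23451372 and chr13:23400949-23403481 had 8, 5, 2 and 3 and 6, 5, 3 and 3. Hist1h3e was ninth and the single histone anchor among these 10.

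The remaining histone anchors varied with the list. Hist1h1c had 7, 3, 5 and 2 loops, Hist1h1t with Hist1h4c 5, 3, 4 and 4, Hist1h2bm 7, 3, 4 and 2, and Hist1h1b with its neighbors 7, 4, 2 and 1. Hist1h4h with Hist1h2af had 3, 9, 2 and 1, and FOXA1 tumor was highest there. The anchor of subcluster 2 had 4 and 3 loops for FOXA1 and none for HNF4G. For HNF4G tumor the Hist1h1t anchor was the only histone anchor with more than 2 loops.

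Of the other gene families in the window, Zfp184 and Zfp322a, both zinc finger genes, each had an anchor, with 9, 3, 5 and 3 loops in sum. Of the 2 butyrophilin genes only Btn1a1 had one. Abt1, which encodes a basal transcription activator, and Prss16 had 11, 13, 7 and 7 distinct loops together, with the FOXA1 tumor loop that joined them counted once. Of 36 vomeronasal receptor genes 1 had an anchor.

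More window loops were listed in liver mets than in the primary tumor for both factors, but so were loops in general. For FOXA1 the ratio was 1.48 (1.06 to 2.07) against 1.21 for the whole lists, and as a ratio of shares of each list 1.22 (0.879 to 1.71). For HNF4G it was 1.21 (0.792 to 1.86) against 1.02. FOXA1 over HNF4G was 1.79 (1.26 to 2.56) in liver mets and 1.47 (0.979 to 2.21) in the tumor line, where the whole lists had 1.61 and 1.36. The window's share of a list was thus not distinguishable between factors or lines at this number of loops.

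Left of the block FOXA1 over HNF4G in liver mets was 3.50 (1.37 to 10.6), from 21 and 6 loops, and 2.18 (0.849 to 6.59) as a ratio of shares. With a histone anchor in the tumor line it was 3.0 (1.43 to 6.88), and 2.20 (1.05 to 5.04) as a ratio of shares, and without a histone anchor it was 1.00 (0.598 to 1.67). In liver mets the ratio with a histone anchor was 1.95 (1.13 to 3.48), or 1.21 as a ratio of shares. HNF4G liver mets over tumor with a histone anchor was 2.10 (0.947 to 4.99). The differences between these ratios were not tested, and the ratios of 3.0 and 2.10 rest on the 10 histone anchor loops of HNF4G tumor. The ratios between subclusters, 2 against 3 loops for FOXA1 in liver mets and tumor (0.667, 0.0557 to 5.82) and 2 against 1 for FOXA1 and HNF4G in liver mets (2.00, 0.104 to 118), were open in both directions.

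Few window loops recurred. Only 3 of 179 distinct loops were in all 4 lists (1.68%, Wilson interval 0.572 to 4.81), where 5.28% of all distinct loops were. With 5 kb added to both sides of every anchor the window's share was 8.94% (5.58 to 14), and that of all loops was not computed. With exact anchors 71.5% were in 1 list alone, against 65.6%. Long loops recur less everywhere, and from 1000 to 2000 kb 86.4% of window loops and 94.5% of all others were in 1 list. Up to 20 kb 12.5% of 16 window loops (3.50 to 36.0) and 30.0% of all others were in 4 lists, and from 20 to 100 kb 2.22% of 45 (0.393 to 11.6) and 10.3%. Both intervals held the value of the other loops. Up to 20 kb 12.5% of the window loops and 17.1% of the others were in 1 list alone. Besides the Hist1h1t to Hist1h1c loop, the 3 recurrent loops joined C230035I16Rik with Gm46404 (16.6 kb) and the anchor chr13:23437533-23439169 with Gm46404 (8.88 kb). None of the 3 had a value over 0.735 in any list.

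The HNF4G lists shared few of their window loops. They had 7 in common, 13.5% of liver mets and 16.3% of tumor loops, where 32.9% and 33.6% of the whole lists were shared. The FOXA1 lists had 24 in common, 25.8% and 38.1%, against 34.0% and 41.1%. Across factors 22 were shared in liver mets (23.7% of FOXA1 and 42.3% of HNF4G loops) and 15 in the tumor line (23.8% and 34.9%), where the whole lists had 27.8% and 44.8%, and 28.4% and 38.7%. None of these comparisons was matched for span, and no interval was calculated. The window held a larger share of long loops than the whole lists, and long loops recur less. Loops in both lists of a factor and neither of the other numbered 8 for FOXA1 and 2 for HNF4G, and loops in both lists of a line and neither of the other 10 for liver mets and 6 for tumor. These were 4.47%, 1.12%, 5.59% and 3.35% of the window's distinct loops, where the same patterns took 5.88%, 1.81%, 3.64% and 2.48% of all distinct loops.

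Those with the highest values in these 4 sets were mostly loops over the block, as the tied value of long loops is high. For FOXA1 they joined chr13:21939270-21941727 with chr13:23437533-23439169 (1498 kb), the anchor of subcluster 2 with n-TStga1 (1477 kb) and Trim27 outside the window with Hist1h2bm (541 kb). Both HNF4G loops crossed the block, from Prss16 to n-TStga1 (1512 kb) and from Gm11292 to C230035I16Rik (1402 kb). The liver mets lists alone held Hist1h2bm to Hist1h3e, an anchor without a start to Gm46404 (1618 kb) and Zfp184 to n-TStga1 (1573 kb). The tumor lists alone held an anchor without a start to Btn1a1 (1525 kb), the Hist1h1b anchor to another without a start (212 kb) and Prss16 to one more (68.5 kb).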

How the data were processed

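Groups came from the sample titles, and each loop list covered both replicates of 1 group. Per the study, read pairs were processed with HiC-Pro on mm10 (submitters' processing notes: version 3.1.0) and loops called with hichipper. Neither where the anchors came from nor how many read pairs a loop needed was given in the sources used here. The value deposited by the authors per loop had no name and was read as −log10 of an adjusted p from its tied runs and its end at 20. The deposited display score added nothing to it.

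Anchors of all lists were paired up to 2 Mb between midpoints. Expected loops were summed from the share of all pairs outside the window that were listed, in bins of 10 kb under 100 kb and of 100 kb above. Intervals were exact Poisson for counts and their ratios to expectation, exact binomial for ratios between lists, and Wilson for shares, and cover counting error only. The expectation was tested on simulated data, with pairs drawn independently at the listing rates by span that the expectation itself uses. That checks the calculation but not the effect of shared anchors. Python 3.11.15, pandas 2.3.3 and scipy 1.17.1 were used.

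Members and lists were chosen with earlier results of these data known. Named anchors were the 10 with most loops, and named loops those between subclusters, in all 4 lists, or with the highest lowest value in both lists of 1 factor or line and neither other. The printed promoters beyond that of Hist1h3e were added after the values were seen. Alternatives were a minimum value of 2, other definitions of window, anchor and subcluster, wider anchors and other references.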

Additional observations from a re-analysis of the deposited data

Results flagged for a closer look

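Effects of opposite direction under the same contrast were found in 3 classes of window loops, with 1 list per group and no test of the difference. Left of the vomeronasal block liver mets over tumor was 1.62 for FOXA1 (21 and 13 loops) and 0.50 for HNF4G (6 and 12), with intervals of 0.772 to 3.51 and 0.154 to 1.44. For HNF4G these loops ended at the anchor of Prss16 0 times in liver mets and 5 times in tumor, and for FOXA1 3 and 4 times. Prss16 was not alone, as HNF4G had 0 and 4 at chr13:21918094-21920029, 0 and 3 at chr13:21939270-21941727 and 1 and 4 at Gm11292. The direction was the other way at the histone anchors of subcluster 1 (3 and 1, 2 and 0, 2 and 1) and at chr13:21828017-21829586 (2 and 0). Window loops without a histone anchor had ratios of 1.58 for FOXA1 and 0.939 for HNF4G, liver mets over tumor. For loops to outside the window FOXA1 over HNF4G was 1.45 in liver mets and 0.889 in tumor. Each of these intervals included 1, that of 1.58 at its lower bound of 1.000.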

How the results depend on the processing

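No paired analysis was possible because each group had 1 list for both replicates, and for the same reason no replicate could be left out. Of 58 alternatives computed, 51 gave a value inside the interval of the reported one, 7 moved out of it and 0 reversed a direction whose interval excluded 1. These numbers do not measure robustness. Taking overlapping anchors could not move a value, as no anchor overlapped the window's limits. Requiring a histone start inside the anchor left the between-subcluster values as they were. Some intervals, such as 0.104 to 118, hold almost any value. A minimum value of 2 left 2 window loops, both in FOXA1 liver mets, so listed over expected between subclusters was 0 in all 4 lists and recurrence in all 4 lists 0%, and the ratios between lists could not be calculated. The share of window loops in all 4 lists was 8.94% instead of 1.68% with 5 kb added to both sides of every anchor, so recurrence depends on how exactly anchors must match. The share of all loops under that setting was not computed. References chosen after the data were seen moved the loops over the vomeronasal block to 2.67 in FOXA1 liver mets and 2.31 in FOXA1 tumor, when pairs with an anchor-free stretch of 1 Mb or more were used. With both anchors inside the window FOXA1 liver mets over tumor was 1.40 (0.978 to 2.02), and in the tumor line FOXA1 over HNF4G was 1.62 (1.04 to 2.56). Against chromosome 13 alone the interval for HNF4G liver mets loops with a histone anchor, 0.723 (0.448 to 1.11), included 1. Depth per list is unknown, so a missing loop may be one that was not detectable.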
